A study of Mus musculus with 7 samples.

Results

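The genes examined here encode nucleoporins, the proteins that build the nuclear pore complex, and karyopherins, the receptors that carry cargo through it. Members were the array probes whose platform symbol starts with Nup and a digit, Kpn, Ipo, Xpo or Tnpo and whose detection p-value was under 0.01, called above background here, on at least 2 arrays. The symbol rule gave 51 probes of 35 genes, and 35 probes of 26 genes passed the detection limit. They stand among 10113 named probes of 7425 genes that met the same limit on the whole array.

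Expression was measured in cells sorted from spleens of C57Bl/6J mice (10 weeks of age and female by their labels) on 1-colour Illumina bead arrays. The 7 arrays held 2 samples of plasma cells (B220low CD138+) and 3 samples of plasmablasts (B220mid CD138+), both taken on day 3 after lipopolysaccharide (LPS), and 2 samples of naive B cells (B220+ CD43-) from naive mice. Plasmablasts are antibody-secreting cells that still divide, and plasma cells are their end stage. The labels number the replicates without saying whether each came from its own animal. The p-values therefore cover the spread between these samples, which may be technical. LPS treatment, gate and cell stage differ together between the LPS groups and naive B cells, and they cannot be told apart.

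The pore is a ring-shaped channel through the nuclear envelope. A scaffold made of the Y-shaped Nup107-160 complex and an inner ring holds nucleoporins rich in phenylalanine-glycine (FG) repeats, which line the channel and bind transport receptors. Importins pick up cargo with a nuclear localization signal in the cytoplasm, exportins pick up cargo with an export signal in the nucleus, and the small GTPase Ran sets the direction of both. The pore is dismantled and rebuilt at each mammalian mitosis, and in B cells the karyopherins carry transcription factors, ribosomal proteins and histones.

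Each array had 8817 to 9930 of its 25697 probes above background, and the median scanner signal lay between 153 and 186. The lowest normalized log2 signal above background was 6.27 to 6.79. Arrays of 1 group correlated at r of at least 0.993 across probes, against at most 0.826 between groups. All 8 antibody-secreting cell markers were above background on plasma cell and plasmablast arrays, and 2 of 8 on naive B cell arrays. Their summed signal was 44340 to 47200 in plasma cells, 65930 to 68100 in plasmablasts and 7987 to 8083 in naive B cells. At a limma adjusted p under 0.05, 4 of the 8 (Bhlha15, Derl3, Irf4 and Prdm1) were lower in plasma cells than in plasmablasts. None of the 8 was higher, and 46.3% of all probes tested were lower. Of 8 B cell markers, 3 to 4 were above background in plasma cells, 6 in plasmablasts and 7 in naive B cells, and the defining B cell factor Pax5 was not above background on any array. Summed signal of 15 myeloid markers was 101700 to 101800 in plasma cells, 4991 to 9744 in plasmablasts and 36080 to 39460 in naive B cells, with Elane and Vcam1 not above background in plasma cells. Bright genes weigh most in this sum, above all Lyz1 and Lyz2 (mean log2 signal 15.39 and 15.33 in plasma cells). The markers did not rise together. Of 14 tested, limma called 9 higher in plasma cells than in naive B cells and 4 lower (C1qa, C1qb, C1qc and Vcam1). The shares of all probes tested were 33.0% and 37.4%. Summed signal of 11 T and NK cell markers was 4108 to 4344 in plasma cells, 1034 to 1581 in plasmablasts and 518 to 535.7 in naive B cells, and Cd4, Cd5, Cd8a and Ncr1 were not above background in any plasma cell or plasmablast array. For 8 erythroid and platelet markers none was above background in plasma cells or plasmablasts, and 7 were in naive B cells. The Y-linked genes Eif2s3y and Kdm5d were above background on both naive B cell arrays and on none of the other arrays, and the Uty probe was above background on all 7, although every sample is labelled female. The part of these other cells, and of a sex difference between groups, in the results below was not tested. In these sorted bulk samples, fewer cells of a type and less RNA per cell cannot be told apart.

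Of the 51 probes, 23 were above background on all 7 arrays. The probes just inside the limit, on 2 arrays, were 2 of the Nup88 probes (ILMN_2639464 and ILMN_2742498). The probe just outside it, on 1 array, was a second Xpo7 probe (ILMN_1224755), and the other 15 that failed were above background on none. For 9 genes no probe passed: Ipo7, Kpna4, Kpna7, Nup153, Nup188, Nup54, Tnpo1, Tnpo2 and Xpo1. Xpo1, the main exportin for cargo with leucine-rich signals, and Nup153, a basket nucleoporin, were thus not above background on any array, and no level can be given for them. A probe's brightness depends on its sequence, so each probe was compared between groups and never with another probe.

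Most of the nuclear pore and transport genes had their highest signal in plasmablasts. Every plasmablast array lay above every other array for 25 of 35 member probes, in 19 genes, against 31.4% of all probes tested. Among the 23 probes above background on all 7 arrays the number was 15. The share over all probes above background on all 7 arrays was not computed. A pair of the 35 probes (Nup88 ILMN_2742498 and Xpo4 ILMN_1231751) had passed the detection limit on plasmablast arrays alone, and none had passed on plasma cell or naive B cell arrays alone. Both are counted among the 25, here and in the comparisons with plasmablasts below, and had to differ.

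**Figure D1:**
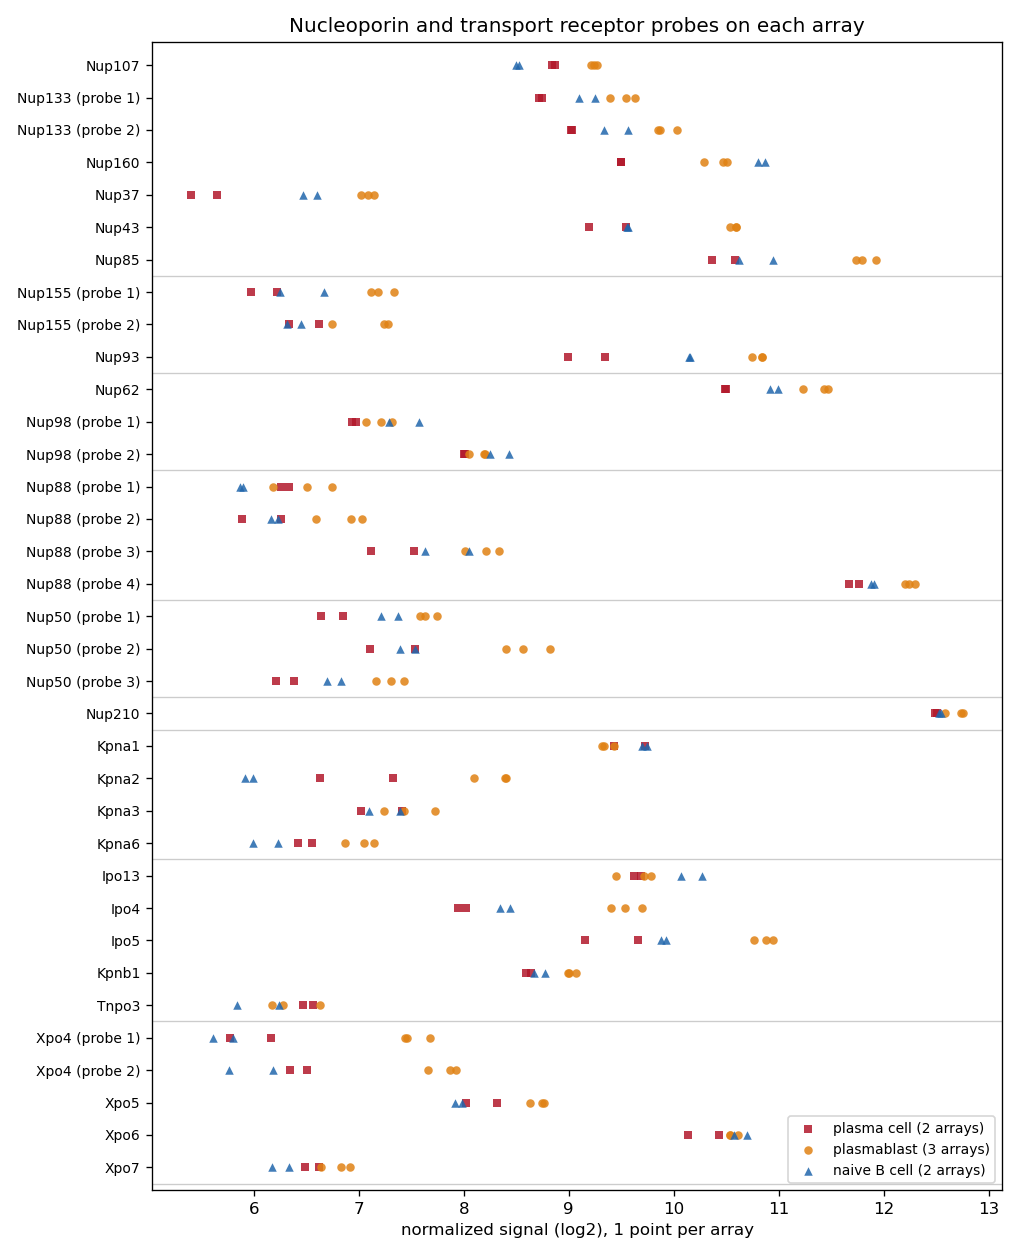
Normalized log2 signal (x axis) of each nucleoporin and transport receptor probe (rows, grouped by role), 1 point per array, with squares for plasma cells, circles for plasmablasts and triangles for naive B cells; several probes of a gene are numbered in the order of their ILMN identifiers. The 3 plasmablast arrays hold the highest values for 25 of 35 probes, and in the Nup160 and Ipo13 rows both naive arrays lie to the right of all others.

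Plasmablasts were set against naive B cells to ask how the transport machinery differs between dividing antibody-secreting cells and resting cells. limma called 25 of 35 member probes higher in plasmablasts, against 35.5% of all probes tested. A call here is an adjusted p (Benjamini-Hochberg, over all probes tested) under 0.05. It called 3 lower, against 36.4% of all probes, and the remaining 7 did not pass. The groups did not overlap for 30 of 35 probes, against 82.1% of all probes, so the lack of overlap was close to the background. The median log2 difference was 0.54 over the members, or 0.42 with the 8 dim probes at their bound (0 where the bound is under 1-fold), and -0.000235 over all probes tested. Of the 23 probes above background on all arrays, 14 were called higher and 3 lower. No share over all probes above background on all arrays was computed, so these counts have no background beside them. The members called at least 2-fold higher numbered 7, and none was called at least 2-fold lower. Over all 10113 probes tested the numbers were 1602 and 1714.

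Plasma cells were set against plasmablasts, the comparison of the 2 LPS stages. Here 25 of 35 member probes were called lower in plasma cells, where 46.3% of all probes tested were called lower. None was called higher by limma, against 27.9% of all probes, and 0 rose at an unadjusted p under 0.05. The groups did not overlap for 30 of 35 probes, against 82.4% of all probes. The median log2 difference was -0.80 over the members and -0.23 over all probes. Without plasma cell replicate 1, and under cyclic loess scaling, 1 probe was called higher, that of Kpna1 (log2 difference 0.36 and limma adjusted p = 0.0208 without the replicate, 0.42 and adjusted p = 0.00894 under cyclic loess).

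Plasma cells were set against naive B cells, the end stage against the start. limma called 5 member probes higher, against 33.0% of all probes, and 15 lower, against 37.4% of all probes, but under cyclic loess, a scaling that fits smooth curves between pairs of arrays, the split was 9 higher and 6 lower. The groups did not overlap for 29 of 35 probes, against 85.5% of all probes. The median log2 difference was -0.19 over the members, or -0.18 with the 8 dim probes at their bound, and -0.08 over all probes. Over all probes cyclic loess called 4020 higher and 3015 lower here, against 3337 and 3783 with the quantile scaling, and between plasma cells and plasmablasts 3585 higher and 3331 lower, against 2821 and 4680. It moved the median of all probes to 0.0987 in this comparison and to -0.0125 between plasma cells and plasmablasts. Relative to that median the members stood at -0.11 in the quantile scaling used here and at -0.165 under cyclic loess against naive B cells, and at -0.56 and -0.55 against plasmablasts.

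**Figure D2:**
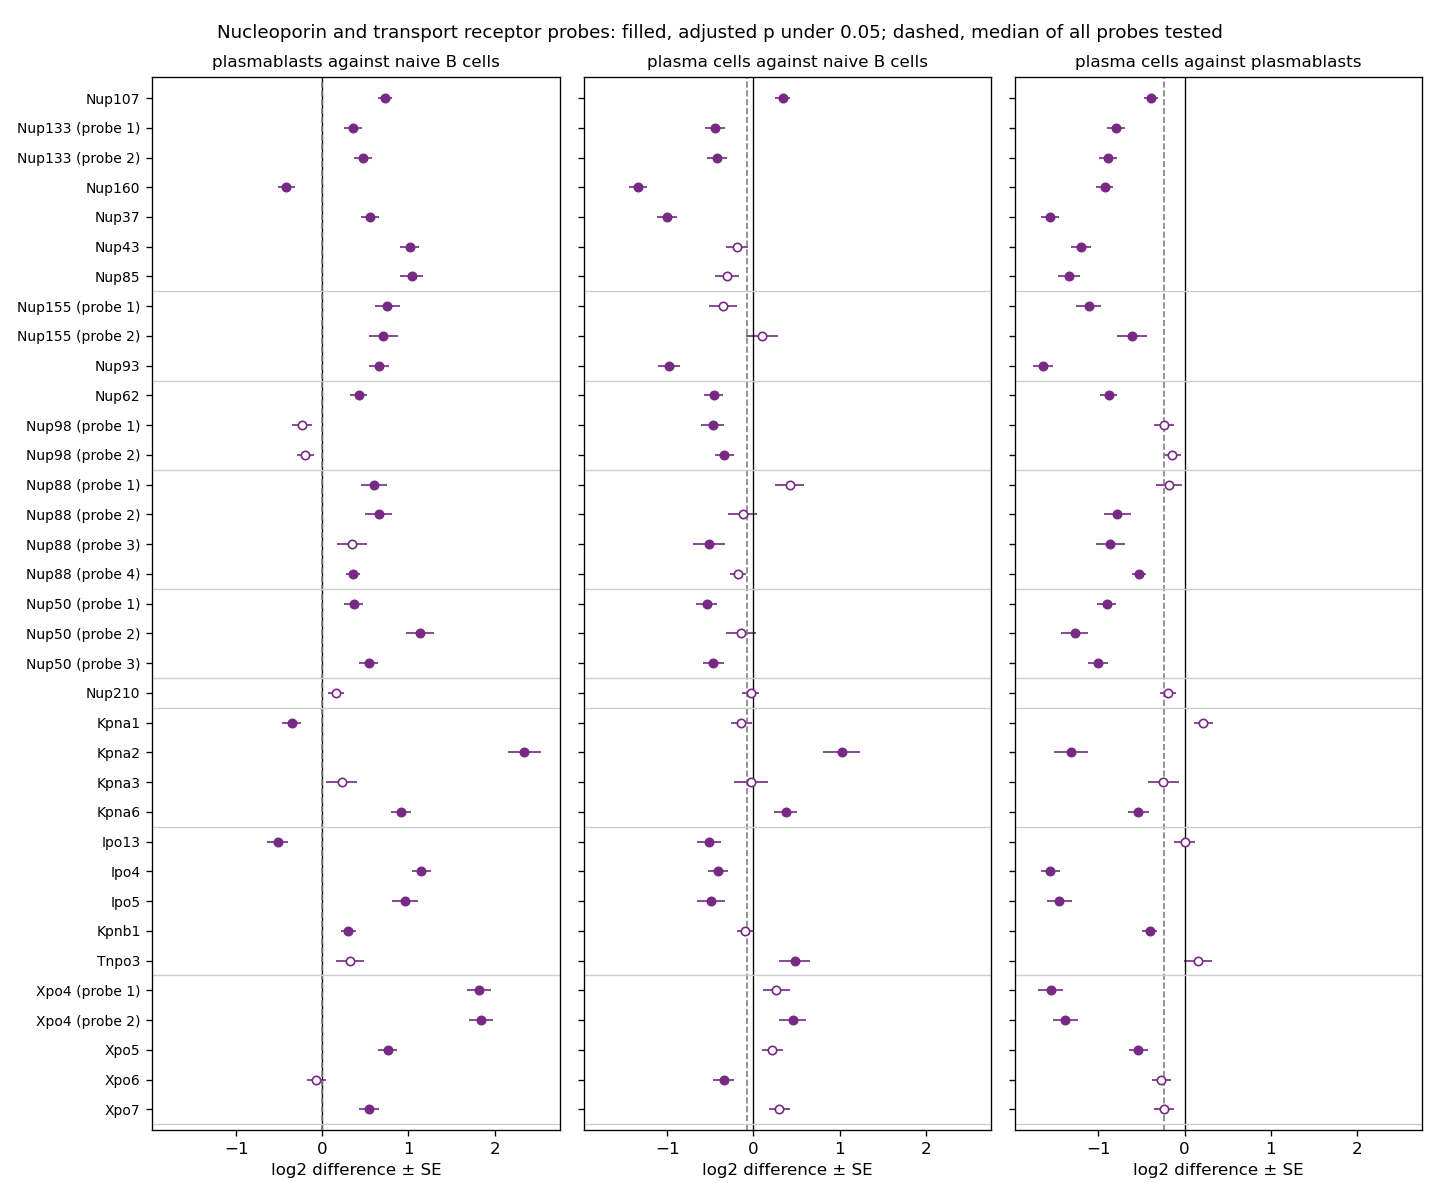
Log2 difference of each nucleoporin and transport receptor probe in the 3 comparisons, with bars for the standard error, filled points for calls at an adjusted p under 0.05 and a dashed line at the median of all probes tested. Kpna2 and Xpo4 stand farthest to the right in plasmablasts against naive B cells, and 25 of 35 probes are called lower in plasma cells than in plasmablasts.

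Promoter sequence was read for the matched members with the largest measured changes in plasmablasts against naive B cells, to show what lies upstream of genes that went opposite ways. RefSeq's promoter table for assembly GRCm38.p6, which holds 250 bases before to 50 after each gene's start, matched 19 of the 26 genes with 23 promoters. Kpna1, Kpna3, Kpna6, Nup43, Nup85, Xpo4 and Xpo7 are named only. The called genes with the largest measured rises were Kpna2 (chr11:106999476-106999775, minus strand) and Ipo4 (chr14:55635635-55635934, minus strand), and those with the largest falls were Ipo13 (chr4:117914950-117915249, minus strand) and Nup160 (chr2:90676965-90677264, plus strand). They are written 5′ to 3′ with each match to a searched motif in capitals, and no 2 matches overlap.
Kpna2: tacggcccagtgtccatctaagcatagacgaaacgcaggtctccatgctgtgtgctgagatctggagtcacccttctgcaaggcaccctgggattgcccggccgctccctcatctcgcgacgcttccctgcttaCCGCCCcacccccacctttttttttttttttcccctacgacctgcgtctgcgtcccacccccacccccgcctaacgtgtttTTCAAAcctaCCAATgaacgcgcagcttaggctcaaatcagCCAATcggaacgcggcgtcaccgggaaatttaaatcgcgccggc
Ipo4: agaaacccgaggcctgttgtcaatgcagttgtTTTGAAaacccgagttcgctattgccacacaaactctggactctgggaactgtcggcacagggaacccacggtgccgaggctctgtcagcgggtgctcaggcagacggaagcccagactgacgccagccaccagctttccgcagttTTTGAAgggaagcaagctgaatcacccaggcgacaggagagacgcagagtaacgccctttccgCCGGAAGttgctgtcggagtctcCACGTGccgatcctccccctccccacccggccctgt
Ipo13: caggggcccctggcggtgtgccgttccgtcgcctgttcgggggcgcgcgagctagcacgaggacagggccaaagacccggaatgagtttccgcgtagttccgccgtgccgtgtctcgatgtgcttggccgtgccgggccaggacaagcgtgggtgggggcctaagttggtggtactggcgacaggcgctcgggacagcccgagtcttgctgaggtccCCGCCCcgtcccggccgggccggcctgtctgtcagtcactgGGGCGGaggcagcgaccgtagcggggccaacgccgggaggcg
Nup160: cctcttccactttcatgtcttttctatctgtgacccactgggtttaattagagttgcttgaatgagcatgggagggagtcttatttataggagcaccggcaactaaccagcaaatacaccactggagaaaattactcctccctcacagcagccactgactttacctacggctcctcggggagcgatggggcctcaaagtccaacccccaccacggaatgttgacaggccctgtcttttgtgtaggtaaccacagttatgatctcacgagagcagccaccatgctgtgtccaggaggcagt

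In the Kpna2 window the capitals are a GC box (CCGCCC, 116 bases before the start), the letters of a cell cycle genes homology region (TTCAAA) and 2 CCAAT boxes. In the Ipo4 window they are 2 such regions (TTTGAA), an ETS motif (CCGGAAG, 9 bases before the start) and an E-box (CACGTG). The Ipo13 window held 2 GC boxes, and the Nup160 window held none of the letters searched. Motifs were searched on both strands in all 32851 promoters of the table. The NRF1 core GCGCATGC was in 17.4% of the 23 member promoters (those of Nup107, Nup50, Nup62 and Xpo5) and in 2.71% of all promoters. The ETS motif CCGGAAG was in 26.1% of member promoters and 8.86% of all, the GC box GGGCGG in 69.6% and 35.7%, and CCAAT in 56.5% and 37.4%. The E-box CACGTG was in 8.7% of member promoters and 7.15% of all, TTTGAA in 21.7% and 17.9%, and the E2F letters TTTGGCGC or TTTCCCGC in 4.35% and 1.56%. These are counts of letters in a window and not binding sites. The member promoters belong to genes above background on at least 2 arrays, and the 32851 promoters were not filtered that way. The shares thus compare unlike sets.

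The Y complex forms the outer rings of the pore scaffold and also sits at kinetochores in mitosis. Of the 7 member probes grouped under it here, 6 were called higher and 1 lower in plasmablasts against naive B cells. Of all probes, 35.5% were called higher and 36.4% lower. All 7 were called lower in plasma cells than in plasmablasts, against 46.3% of all probes. Against naive B cells, plasma cells had 1 called higher and 4 called lower, against 33.0% and 37.4%. Each gene was placed under 1 role only, so the 7 probes are not a full list of the complex. Nup98 was placed with the FG nucleoporins, and its probes, given below, were not called in plasmablasts against naive B cells. Further subunits outside the symbol rule are named here after their values were seen. In plasmablasts against naive B cells Sec13 rose by 0.99 (limma adjusted p = 1.14e-05), while Seh1l (-0.04, adjusted p = 0.718) and Ahctf1 (-0.19, adjusted p = 0.0779) did not pass.

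Nup160, a core subunit at the branch of the Y, was the only probe grouped under the complex that was called lower in plasmablasts. It had 9.50 and 9.49 log2 signal in plasma cells, 10.47, 10.29 and 10.51 in plasmablasts, and 10.87 and 10.81 in naive B cells. The 3 groups did not overlap, and the order ran down through the stages. It fell by 0.42 on the log2 scale in plasmablasts (SE 0.10, limma adjusted p = 0.00474), and plasma cells fell by 0.93 against plasmablasts (SE 0.10, adjusted p = 5.38e-05), or 1.34 against naive B cells (2.54-fold, SE 0.11, adjusted p = 1.03e-05).

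Nup107, in the stem of the same complex, had 8.84 and 8.87 in plasma cells, 9.22, 9.24 and 9.27 in plasmablasts, and 8.50 and 8.53 in naive B cells. Naive B cells were thus lowest, and the groups did not overlap. It rose by 0.73 in plasmablasts (1.65-fold, limma adjusted p = 6.23e-05) and by 0.34 in plasma cells (1.27-fold, adjusted p = 0.00854), both against naive B cells. The fall of 0.39 in plasma cells against plasmablasts (adjusted p = 0.00257) was not called under cyclic loess, where the difference was -0.167 (adjusted p = 0.099).

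Nup37, a small WD-repeat subunit of the complex, had 5.40 and 5.65 in plasma cells, 7.15, 7.09 and 7.02 in plasmablasts, and 6.47 and 6.60 in naive B cells. It was not above background on either plasma cell array. Plasmablasts were at least 1.75-fold higher than plasma cells up to the background limit of the plasma cell arrays, the measured difference being -1.56 for plasma cells (limma adjusted p = 4.78e-06). Plasma cells were at least 1.19-fold lower than naive B cells (measured difference -1.01, adjusted p = 9.3e-05), and plasmablasts were 1.47-fold higher than naive B cells (adjusted p = 0.00163).

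Nup43 and Nup85, also of the Y complex, rose in plasmablasts and fell in plasma cells against plasmablasts. Nup43 averaged 9.37 ± 0.25 in plasma cells, 10.57 ± 0.035 in plasmablasts and 9.56 ± 0.0014 in naive B cells (SD, n = 2, 3 and 2). Its plasmablast rise was 1.01 (2.02-fold, limma adjusted p = 6.87e-05), and its difference of -0.19 between plasma cells and naive B cells did not pass (adjusted p = 0.202). Nup85 averaged 10.48 ± 0.16 in plasma cells, 11.82 ± 0.10 in plasmablasts and 10.79 ± 0.23 in naive B cells. It rose by 1.04 in plasmablasts (2.05-fold, adjusted p = 0.000126), and plasma cells fell by 1.34 against plasmablasts (adjusted p = 3.22e-05).

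Nup133, at the tip of the stem, had 2 probes above background, which moved alike. The ILMN_2654013 probe had 8.74 and 8.72 in plasma cells, 9.64, 9.39 and 9.55 in plasmablasts, and 9.10 and 9.25 in naive B cells. The ILMN_2981689 probe had 9.03 and 9.02 in plasma cells, 10.03, 9.87 and 9.85 in plasmablasts, and 9.56 and 9.34 in naive B cells. Both ordered the groups with plasmablasts highest and plasma cells lowest, with no overlap. Their rises in plasmablasts were 0.35 and 0.47, and plasma cells were 0.44 and 0.42 below naive B cells on the log2 scale, all called. The first probe's rise was not called without naive B cell replicate 1 (0.274, limma adjusted p = 0.109), nor its fall without naive B cell replicate 2 (-0.367, adjusted p = 0.0552), and the second probe's fall not without naive B cell replicate 1 (-0.31, adjusted p = 0.0783). Under cyclic loess neither probe's plasma cell fall against naive B cells was called (-0.265, adjusted p = 0.069, and -0.26, adjusted p = 0.0733).

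Nup93 and Nup155 belong to the inner ring, which ties the scaffold to the channel. Nup93 had 9.35 and 8.99 in plasma cells, 10.84, 10.84 and 10.75 in plasmablasts, and 10.16 and 10.15 in naive B cells. The 3 groups lay apart, plasma cells lowest. In plasma cells against plasmablasts it fell by 1.64 on the log2 scale (3.12-fold, SE 0.12, limma adjusted p = 6.07e-06), against naive B cells plasma cells fell by 0.98 (1.98-fold, adjusted p = 0.000182), and plasmablasts rose by 0.66 (1.58-fold, adjusted p = 0.00102).

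The Nup155 probes were dim. ILMN_2695281 had 6.22 and 5.97 in plasma cells, 7.18, 7.12 and 7.34 in plasmablasts, and 6.24 and 6.67 in naive B cells, and it was above background on no plasma cell array and on 1 of 2 naive B cell arrays. ILMN_2981935 had 6.34 and 6.62 in plasma cells, 7.28, 7.24 and 6.75 in plasmablasts, and 6.31 and 6.45 in naive B cells. Plasmablasts were highest with both, by 0.76 and 0.71 over naive B cells (limma adjusted p = 0.00175 and 0.0059). Their differences between plasma cells and naive B cells of -0.36 and 0.10 did not pass (adjusted p = 0.0769 and 0.656). The ILMN_2981935 fall of 0.61 in plasma cells against plasmablasts was not called without plasma cell replicate 1 (-0.466, adjusted p = 0.0965) or under cyclic loess (-0.291, adjusted p = 0.151).

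Nup62 and Nup98 are FG nucleoporins. Nup62, the core of the central channel, had 10.49 and 10.50 in plasma cells, 11.47, 11.43 and 11.23 in plasmablasts, and 10.99 and 10.92 in naive B cells. No group overlapped another. It rose by 0.42 in plasmablasts (1.34-fold, limma adjusted p = 0.00499) and fell by 0.46 in plasma cells (1.38-fold, adjusted p = 0.00539), both against naive B cells.

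Nup98, which binds the mRNA export factor Rae1, had its highest mean in naive B cells with both probes. ILMN_2904080 had 6.94 and 6.97 in plasma cells, 7.07, 7.31 and 7.21 in plasmablasts, and 7.58 and 7.29 in naive B cells. ILMN_2904083 had 8.011 and 8.001 in plasma cells, 8.19, 8.05 and 8.20 in plasmablasts, and 8.43 and 8.25 in naive B cells. Plasma cells lay below every other array with both. Differences between plasmablasts and naive B cells of -0.23 and -0.20 did not pass (limma adjusted p = 0.107 and 0.104). Plasma cells fell by 0.48 (adjusted p = 0.0105) and 0.34 (adjusted p = 0.0214) against naive B cells. Without naive B cell replicate 1 neither fall was called (-0.331, adjusted p = 0.0766, and -0.246, adjusted p = 0.132), nor under cyclic loess (-0.234, adjusted p = 0.126, and -0.0872, adjusted p = 0.501). The ILMN_2904083 fall was also not called without plasma cell replicate 1 (-0.342, adjusted p = 0.0604) and not without plasma cell replicate 2 (-0.332, adjusted p = 0.0669).

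Nup88 lies on the cytoplasmic face beside Nup214 and had 4 probes above background. ILMN_3108109, above background on every array, had 11.67 and 11.76 in plasma cells, 12.20, 12.25 and 12.30 in plasmablasts, and 11.88 and 11.90 in naive B cells. Plasmablasts stood above both other groups, by 0.35 over naive B cells (1.28-fold, limma adjusted p = 0.00537), and plasma cells fell by 0.53 against plasmablasts (1.44-fold, adjusted p = 6e-04). ILMN_3034381 had 7.53 and 7.12 in plasma cells, 8.33, 8.01 and 8.22 in plasmablasts, and 7.63 and 8.04 in naive B cells. Its plasmablast difference of 0.35 did not pass (adjusted p = 0.103), as plasmablasts and naive B cells overlapped. It fell by 0.51 in plasma cells against naive B cells (adjusted p = 0.0384), which did not pass without naive B cell replicate 2 (-0.308, adjusted p = 0.234), without plasma cell replicate 2 (-0.311, adjusted p = 0.23) and without plasmablast replicate 3 (-0.515, adjusted p = 0.0508). Nor did it pass under cyclic loess (-0.251, adjusted p = 0.282) or with no detection filter (adjusted p = 0.0872).

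The other Nup88 probes were near background. ILMN_2742498 had 6.25 and 5.88 in plasma cells, 7.03, 6.60 and 6.92 in plasmablasts, and 6.16 and 6.23 in naive B cells, and only plasmablast arrays were above background, 2 of 3. ILMN_2639464 had 6.26 and 6.33 in plasma cells, 6.18, 6.51 and 6.74 in plasmablasts, and 5.86 and 5.89 in naive B cells. Plasmablasts were at least 1.25-fold higher than naive B cells with ILMN_2742498, down to the background limit of the naive arrays (limma adjusted p = 0.00542). This probe had passed the detection limit on plasmablast arrays alone, so that it had to differ, and the p-value adds no support. With ILMN_2639464 the measured difference passed (0.60, adjusted p = 0.00707), but the plasmablast mean lay below the background limit of the naive arrays, so no fold is given. The ILMN_2639464 difference of 0.42 between plasma cells and naive B cells stood just outside the threshold (adjusted p = 0.05 after rounding). The other Nup88 probes had differences below 0 there, of which 2 turned to 0.00287 and 0.00433 under cyclic loess.

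Nup50, a mobile basket nucleoporin that binds importin alpha and helps release its cargo, rose in plasmablasts with all 3 probes. ILMN_1253804 had 7.53 and 7.11 in plasma cells, 8.56, 8.82 and 8.40 in plasmablasts, and 7.53 and 7.39 in naive B cells. ILMN_1244061 had 6.85 and 6.63 in plasma cells, 7.74, 7.63 and 7.58 in plasmablasts, and 7.37 and 7.21 in naive B cells. ILMN_2748839 had 6.38 and 6.21 in plasma cells, 7.30, 7.17 and 7.43 in plasmablasts, and 6.69 and 6.83 in naive B cells. Plasmablasts were highest with each, but the probes differed in how far.

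The rise against naive B cells was 1.13 with ILMN_1253804 (2.19-fold, limma adjusted p = 0.000294), 0.36 with ILMN_1244061 (1.29-fold, adjusted p = 0.0153) and 0.54 with ILMN_2748839 (1.45-fold, adjusted p = 0.00245). Plasma cells fell by 1.28, 0.91 and 1.01 against plasmablasts with these probes of Nup50. Against naive B cells, plasma cells fell by 0.54 with ILMN_1244061 (adjusted p = 0.00337) and 0.47 with ILMN_2748839 (adjusted p = 0.00864), and the ILMN_1253804 difference of -0.14 did not pass (adjusted p = 0.485). The ILMN_1244061 rise was not called without naive B cell replicate 2 (0.282, adjusted p = 0.112). As for ILMN_2748839, its fall was not called without naive B cell replicate 2 (-0.401, adjusted p = 0.0568) and not without plasma cell replicate 2 (-0.381, adjusted p = 0.0544), nor under cyclic loess (-0.298, adjusted p = 0.0828), with the authors' values (-0.194, adjusted p = 0.0538) or without background correction (-0.194, adjusted p = 0.0533).

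Nup210, a transmembrane glycoprotein that anchors the pore in the envelope, had 12.49 and 12.51 in plasma cells, 12.73, 12.58 and 12.76 in plasmablasts, and 12.52 and 12.55 in naive B cells. The plasmablast arrays were the highest, yet the differences of 0.16 over naive B cells (limma adjusted p = 0.15), -0.19 for plasma cells against plasmablasts (adjusted p = 0.0862) and -0.03 for plasma cells against naive B cells (adjusted p = 0.773) did not pass.

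**Figure D3:**
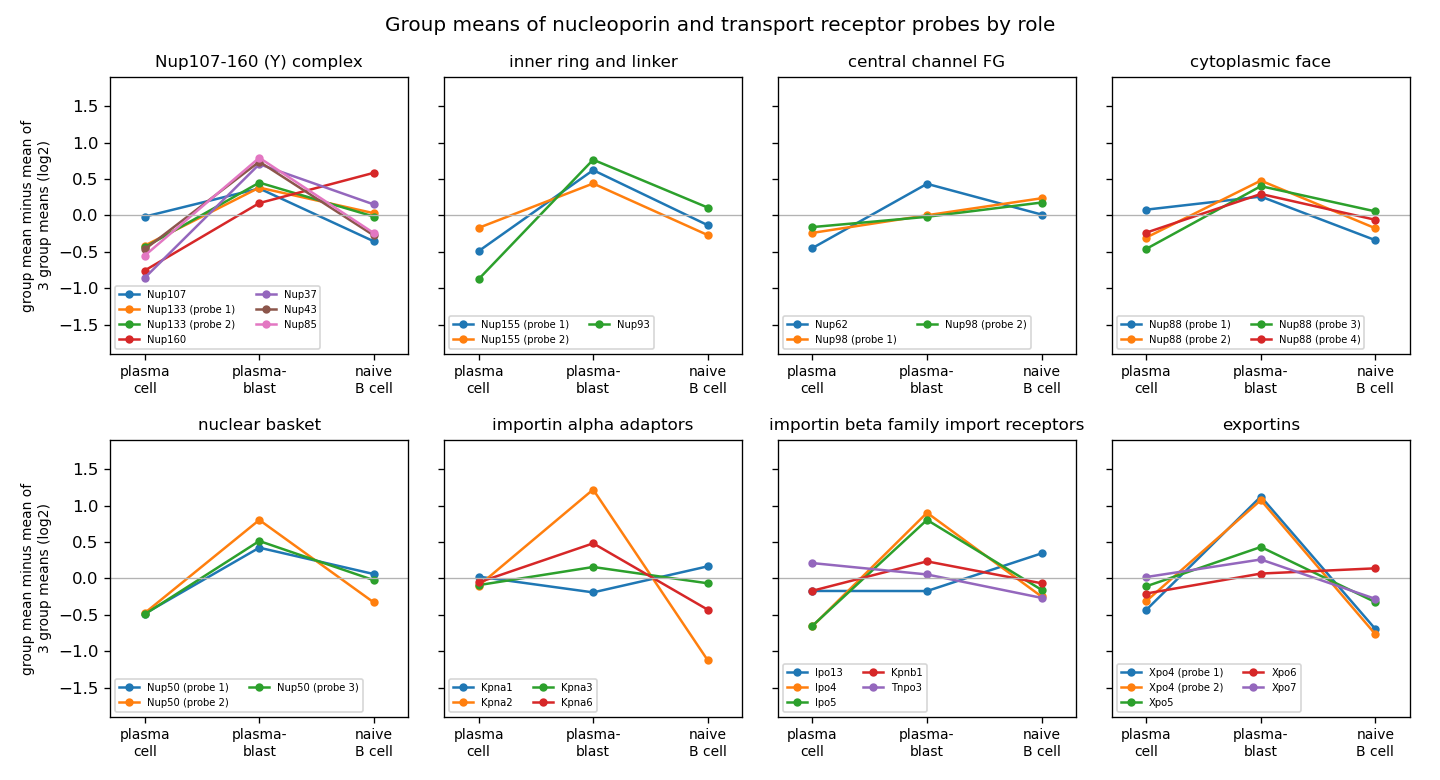
Group mean of each probe minus the mean of its 3 group means (log2, y axis) in plasma cells, plasmablasts and naive B cells, with 1 line per probe and 1 panel per role; Nup210, the only membrane ring probe, is not drawn. All 7 Y complex lines are lower in plasma cells than in plasmablasts, and Nup160 alone among them is highest in naive B cells.

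The importin alpha adaptors, which bind the classical localization signal and hand cargo to importin beta, had 4 member probes. In plasmablasts against naive B cells 2 were called higher, against 35.5% of all probes, and 1 lower, against 36.4%, and so few probes near the background give no result for the group. Kpna2, an adaptor known to be abundant in dividing cells, had 7.32 and 6.63 in plasma cells, 8.10, 8.40 and 8.39 in plasmablasts, and 5.91 and 5.99 in naive B cells. It was not above background on either naive array. Plasmablasts were at least 3.41-fold higher than naive B cells (measured difference 2.34, limma adjusted p = 1.09e-05), and plasma cells at least 1.36-fold higher (measured 1.02, adjusted p = 0.00282). Plasma cells fell by 1.32 against plasmablasts (2.50-fold, SE 0.20, adjusted p = 0.000384).

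Kpna6 had 6.55 and 6.42 in plasma cells, 7.15, 7.05 and 6.87 in plasmablasts, and 6.23 and 5.99 in naive B cells. The order of the groups was that of Kpna2, without overlap. It was at least 1.41-fold higher in plasmablasts than in naive B cells (limma adjusted p = 0.000173). The measured plasma cell difference of 0.37 over naive B cells passed (adjusted p = 0.0315), but the plasma cell mean lay below the background limit of the naive arrays, so no fold is given. The difference was not called without naive B cell replicate 2 (0.255, adjusted p = 0.184), plasma cell replicate 1 (0.311, adjusted p = 0.134) and not without plasma cell replicate 2 (0.438, adjusted p = 0.0513). Nor was it called with the authors' values (0.146, adjusted p = 0.138), without background correction (0.144, adjusted p = 0.144), with an offset of 50 (0.26, adjusted p = 0.0516), with no detection filter (adjusted p = 0.0603) or with the trended robust eBayes (adjusted p = 0.0841).

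Kpna1, another adaptor, fell in plasmablasts. It had 9.43 and 9.73 in plasma cells, 9.34, 9.32 and 9.43 in plasmablasts, and 9.74 and 9.70 in naive B cells. The plasmablast arrays lay below both naive arrays, and plasma cells overlapped both other groups. It fell by 0.36 in plasmablasts (1.28-fold, limma adjusted p = 0.0167), which did not pass without naive B cell replicate 1 (-0.335, adjusted p = 0.0831), and not without replicate 2 (-0.381, adjusted p = 0.0555). Kpna3 averaged 7.22 ± 0.28 in plasma cells, 7.47 ± 0.25 in plasmablasts and 7.24 ± 0.21 in naive B cells, and no comparison passed.

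Among the importin beta family receptors that bring cargo in, 3 of 5 probes were called higher in plasmablasts than in naive B cells, against 35.5% of all probes, and 1 lower, against 36.4%. Ipo4, which imports histones and ribosomal proteins, had 7.95 and 8.02 in plasma cells, 9.69, 9.53 and 9.41 in plasmablasts, and 8.44 and 8.34 in naive B cells. The groups lay apart, with plasma cells lowest. It rose by 1.15 in plasmablasts (2.22-fold, SE 0.11, limma adjusted p = 2.13e-05), and plasma cells fell by 1.56 against plasmablasts (2.95-fold, SE 0.11, adjusted p = 5.13e-06). The plasma cell fall of 0.41 against naive B cells (adjusted p = 0.0138) was not called without naive B cell replicate 1 (-0.357, adjusted p = 0.0761) and not without plasma cell replicate 1 (-0.371, adjusted p = 0.0625). Under cyclic loess it was -0.173 (adjusted p = 0.22).

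Ipo5, a receptor for ribosomal proteins and histones as well, had 9.66 and 9.15 in plasma cells, 10.94, 10.77 and 10.88 in plasmablasts, and 9.88 and 9.92 in naive B cells. It followed the same order as Ipo4. It rose by 0.96 in plasmablasts (1.95-fold, limma adjusted p = 0.000451), and plasma cells fell by 1.45 against plasmablasts (2.74-fold, adjusted p = 4.48e-05). Its fall of 0.49 in plasma cells against naive B cells (adjusted p = 0.0244) was not called without naive B cell replicate 1 (-0.513, adjusted p = 0.0725), naive B cell replicate 2 (-0.473, adjusted p = 0.0916) and not without plasma cell replicate 2 (-0.238, adjusted p = 0.128). Nor was it called under cyclic loess (-0.382, adjusted p = 0.0558) or with no detection filter (adjusted p = 0.0548).

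Kpnb1, importin beta itself, carries the cargo that the adaptors bind. It had 8.64 and 8.59 in plasma cells, 9.004, 8.991 and 9.067 in plasmablasts, and 8.77 and 8.67 in naive B cells. Plasmablasts were highest, by 0.30 over naive B cells (1.23-fold, limma adjusted p = 0.0128), which did not pass without naive B cell replicate 2 (0.247, adjusted p = 0.0906). Plasma cells fell by 0.40 against plasmablasts (1.32-fold, adjusted p = 0.00291), though not under cyclic loess (-0.158, adjusted p = 0.137).

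Ipo13, a receptor that works in both directions, fell by the same amount in both LPS populations. It had 9.68 and 9.62 in plasma cells, 9.72, 9.79 and 9.45 in plasmablasts, and 10.27 and 10.07 in naive B cells. Plasma cells and plasmablasts overlapped (difference 0.00, SE 0.12, limma adjusted p = 0.994), and both lay below the naive arrays by 0.52 (adjusted p = 0.00897 and 0.00536). Without naive B cell replicate 1 neither fall was called (-0.413, adjusted p = 0.0642, in plasma cells and -0.414, adjusted p = 0.0514, in plasmablasts).

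Tnpo3, which imports serine-arginine-rich splicing factors, was dim. It had 6.56 and 6.47 in plasma cells, 6.28, 6.18 and 6.63 in plasmablasts, and 6.24 and 5.83 in naive B cells. Both plasma cell arrays, 1 plasmablast array and no naive array were above background. The measured plasma cell difference of 0.48 over naive B cells passed (limma adjusted p = 0.0427), but the plasma cell mean lay below the background limit of the naive arrays, so no fold is given. It was not called without naive B cell replicate 2 (0.274, adjusted p = 0.258), plasma cell replicate 1 (0.43, adjusted p = 0.151), plasma cell replicate 2 (0.525, adjusted p = 0.0917) or plasmablast replicate 1 (0.478, adjusted p = 0.0532). Nor was it called with the authors' values (0.185, adjusted p = 0.0833), without background correction (0.183, adjusted p = 0.0864), with no detection filter (adjusted p = 0.0943) or with the trended robust eBayes (adjusted p = 0.0504).

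Of 5 exportin probes, 4 were called higher in plasmablasts than in naive B cells, against 35.5% of all probes, and none lower. Of these, 1 (Xpo4 ILMN_1231751) had passed the detection limit on plasmablast arrays alone, so that it had to differ. Xpo4, which exports the translation factor eIF5A, was measured by 2 probes. ILMN_2952725 had 6.51 and 6.35 in plasma cells, 7.66, 7.87 and 7.92 in plasmablasts, and 5.77 and 6.18 in naive B cells. ILMN_1231751 had 6.17 and 5.77 in plasma cells, 7.68, 7.44 and 7.46 in plasmablasts, and 5.80 and 5.61 in naive B cells, and it was above background only on the plasmablast arrays. Plasmablasts stood apart from both other groups with either probe.

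Xpo4 was at least 2.44-fold higher in plasmablasts than in naive B cells with ILMN_2952725 (measured 1.84, limma adjusted p = 7.5e-06) and at least 2.00-fold with ILMN_1231751 (measured 1.82, adjusted p = 7.29e-06). Plasma cells fell by 1.39 against plasmablasts with ILMN_2952725 (2.62-fold, adjusted p = 5.2e-05) and were at least 2.37-fold lower with ILMN_1231751 (adjusted p = 2.49e-05). As ILMN_1231751 had passed the detection limit on plasmablast arrays alone, its p-values in both comparisons add no support. Against naive B cells the probes disagreed on the call in plasma cells: ILMN_2952725 passed at a measured 0.46 (adjusted p = 0.0309; its plasma cell mean lay below the naive arrays' background limit, so no fold is given), while the ILMN_1231751 difference of 0.26 did not pass (adjusted p = 0.161). The ILMN_2952725 difference was not called without naive B cell replicate 1 (0.249, adjusted p = 0.207), plasma cell replicate 1 (0.374, adjusted p = 0.141) and not without plasma cell replicate 2 (0.536, adjusted p = 0.0517). Nor was it called with the authors' values (0.173, adjusted p = 0.102), without background correction (0.171, adjusted p = 0.106) or with no detection filter (adjusted p = 0.0671).

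Xpo5, the exporter of microRNA precursors, averaged 8.17 ± 0.21 in plasma cells, 8.71 ± 0.073 in plasmablasts and 7.95 ± 0.049 in naive B cells (SD, n = 2, 3 and 2). It rose by 0.76 in plasmablasts (1.69-fold, limma adjusted p = 0.000348), and plasma cells fell by 0.54 against plasmablasts (adjusted p = 0.00246), a call just lost under cyclic loess (-0.278, adjusted p = 0.0505). Xpo7 averaged 6.55 ± 0.098 in plasma cells, 6.80 ± 0.14 in plasmablasts and 6.25 ± 0.11 in naive B cells. Plasmablasts were at least 1.20-fold above naive B cells (adjusted p = 0.00262). Xpo6, which carries actin out of the nucleus, had 10.29 ± 0.21 in plasma cells, 10.56 ± 0.043 in plasmablasts and 10.63 ± 0.089 in naive B cells. It did not pass in plasmablasts (-0.07, adjusted p = 0.574). It fell by 0.35 in plasma cells against naive B cells (adjusted p = 0.0313), but not without naive B cell replicate 1 (-0.283, adjusted p = 0.148), naive B cell replicate 2 (-0.409, adjusted p = 0.0521) and not without plasma cell replicate 2 (-0.198, adjusted p = 0.177), nor under cyclic loess (-0.208, adjusted p = 0.16) or with no detection filter (adjusted p = 0.0555).

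Both comparisons with naive B cells use the same 2 arrays, and their values stand side by side above. For 9 probes of 7 genes (Ipo4, Ipo5, Nup133, Nup37, Nup50, Nup62 and Nup93) the signal was called higher in plasmablasts and lower in plasma cells than in naive B cells, a pattern of 3.82% of all probes tested. Under cyclic loess 5 of the 9 lost the plasma cell call: Ipo4, Ipo5, both Nup133 probes and Nup50 ILMN_2748839. No member showed the opposite pattern, which 6.46% of all probes showed.

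The remaining nucleoporins, whose symbols do not start with Nup and a digit, were examined as a separate list of 11 genes, each by the probe with its highest mean. In plasmablasts 7 were called higher and 1 lower than in naive B cells (35.5% and 36.4% of all probes), with a median log2 difference of 0.60 (0.47 with the dim gene at its bound). In plasma cells all 11 were called lower than in plasmablasts (46.3% of all probes, median -0.745). In plasma cells against naive B cells 4 were called higher and 5 lower (33.0% and 37.4% of all probes). Ndc1, a transmembrane nucleoporin needed for pore assembly, had 8.96 and 8.77 in plasma cells, 10.48, 10.44 and 10.49 in plasmablasts, and 7.68 and 7.61 in naive B cells. It rose 7.08-fold in plasmablasts (limma adjusted p = 9.41e-08) and 2.33-fold in plasma cells (adjusted p = 1.35e-05) against naive B cells. Ranbp2, the main component of the cytoplasmic filaments, lay below background on both naive arrays, and plasmablasts were at least 1.38-fold higher (adjusted p = 8.17e-06).

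Gle1, a cytoplasmic-face activator of mRNA export, rose 2.24-fold in plasmablasts against naive B cells (limma adjusted p = 3.8e-06). Rae1, the partner of Nup98, fell in both LPS populations, as its 10.19 and 10.01 in plasma cells and 10.39, 10.50 and 10.26 in plasmablasts lay below the 10.99 and 10.95 in naive B cells (adjusted p = 0.000206 for plasma cells and 0.00113 for plasmablasts). Aaas fell 1.90-fold in plasma cells against naive B cells (adjusted p = 0.000149) and 2.37-fold against plasmablasts (adjusted p = 1.66e-05), and Nupl2 fell 1.95-fold against plasmablasts (adjusted p = 0.000187).

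Of 9 tested genes of the Ran cycle and other transport factors, 4 were called higher in plasmablasts than in naive B cells, near the 35.5% of all probes, and 1 lower, against 36.4%. In plasma cells 7 were called lower than in plasmablasts (46.3% of all probes) and 6 lower than in naive B cells (37.4%). None was called higher in either by limma (27.9% and 33.0% of all probes), nor at an unadjusted p under 0.05 (0 of 9 in each). Rcc1, the exchange factor that loads Ran with GTP on chromatin, rose 2.03-fold in plasmablasts (limma adjusted p = 1.09e-05), and plasma cells fell 2.36-fold against plasmablasts (adjusted p = 5.2e-06). Ranbp1, which helps GTP hydrolysis on Ran, rose 1.73-fold in plasmablasts (adjusted p = 0.000561). Ran had 7.87 and 7.60 in plasma cells, 8.60, 8.44 and 8.25 in plasmablasts, and 8.59 and 8.55 in naive B cells. It did not pass in plasmablasts (-0.14, adjusted p = 0.344) and fell 1.78-fold in plasma cells against naive B cells (adjusted p = 0.000837). Snupn, the import adaptor for spliceosomal small nuclear ribonucleoproteins, fell 1.94-fold in plasma cells against naive B cells (adjusted p = 5.34e-05). Ranbp6 was not above background in either LPS population and was at least 1.35-fold lower in plasma cells and at least 1.03-fold lower in plasmablasts than in naive B cells.

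The mRNA export genes, whose products pass the same pores mostly without karyopherins, stood near the background in plasmablasts against naive B cells. Of 12 tested, 4 were called higher and 4 lower (median -0.08), where 35.5% and 36.4% of all probes were. In plasma cells 1 was called higher and 8 lower than in plasmablasts (27.9% and 46.3% of all probes). In plasma cells against naive B cells 2 were called higher and 6 lower (33.0% and 37.4% of all probes). Alyref, an adaptor of the export complex, rose 1.83-fold in plasmablasts (limma adjusted p = 9.8e-05), while the export receptor Nxf1 fell 1.39-fold (adjusted p = 0.00309) in plasmablasts and 1.83-fold in plasma cells (adjusted p = 0.000179). Nxt2, an Nxf1 cofactor, rose 1.98-fold in plasma cells against plasmablasts (adjusted p = 3.43e-05) and was the list's 1 rise there. Chtop fell 1.84-fold in plasma cells against naive B cells (adjusted p = 0.00014), Pcid2 fell 2.05-fold in plasma cells against plasmablasts (adjusted p = 0.000744), and Thoc6 rose 1.50-fold in plasmablasts (adjusted p = 0.000292).

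Of 13 tested genes of the lamina and envelope, 6 were called higher and 3 lower in plasmablasts against naive B cells. These counts were near the 35.5% and 36.4% of all probes. In plasma cells against plasmablasts 5 were called higher and 5 lower, against 27.9% and 46.3% of all probes. The B-type lamins, the filament proteins under the inner membrane, were highest in plasmablasts. Lmnb1 had 11.02 and 10.90 in plasma cells, 12.30, 12.34 and 12.14 in plasmablasts, and 10.69 and 10.71 in naive B cells, and rose 2.95-fold in plasmablasts (limma adjusted p = 1.9e-06). Lmnb2 rose 2.08-fold in plasmablasts (adjusted p = 4.54e-05). Lmna, the A-type lamin, rose 3.02-fold in plasma cells against naive B cells (adjusted p = 0.000368) and did not pass in plasmablasts (0.01, adjusted p = 0.971). Sun2, an inner membrane protein that couples the lamina to the cytoskeleton, fell 3.77-fold in plasmablasts (adjusted p = 6.72e-07) and 3.82-fold in plasma cells (adjusted p = 1.33e-06) against naive B cells. Tor1a, an ATPase of the envelope lumen, rose 1.70-fold in plasmablasts (adjusted p = 0.000915) and 2.47-fold in plasma cells (adjusted p = 7.62e-05).

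Markers of dividing cells and of other cell types also differed between the groups, in different orders. All 11 tested mitosis genes were called higher in plasmablasts than in naive B cells (median 3.52, or 3.46 with the dim gene at its bound) and lower in plasma cells than in plasmablasts (median -1.84). Plasma cells had all 11 higher than naive B cells (median 1.57, or 1.52 with the bound), and the member median there was -0.19. Of all probes tested, 35.5%, 46.3% and 33.0% were called in these 3 directions. Summed signal of 17 mitosis genes was 7468 to 9288 in plasma cells, 30230 to 31080 in plasmablasts and 2958 to 3018 in naive B cells. The part of dividing cells in the members' values was not tested. Of 14 tested myeloid markers, 12 were called higher in plasma cells than in plasmablasts, and of 7 tested T and NK cell markers 5 were, against 27.9% of all probes. This is the comparison in which 25 member probes fell. The part of myeloid, T or NK cell RNA in that fall was not tested.

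**Figure D4:**
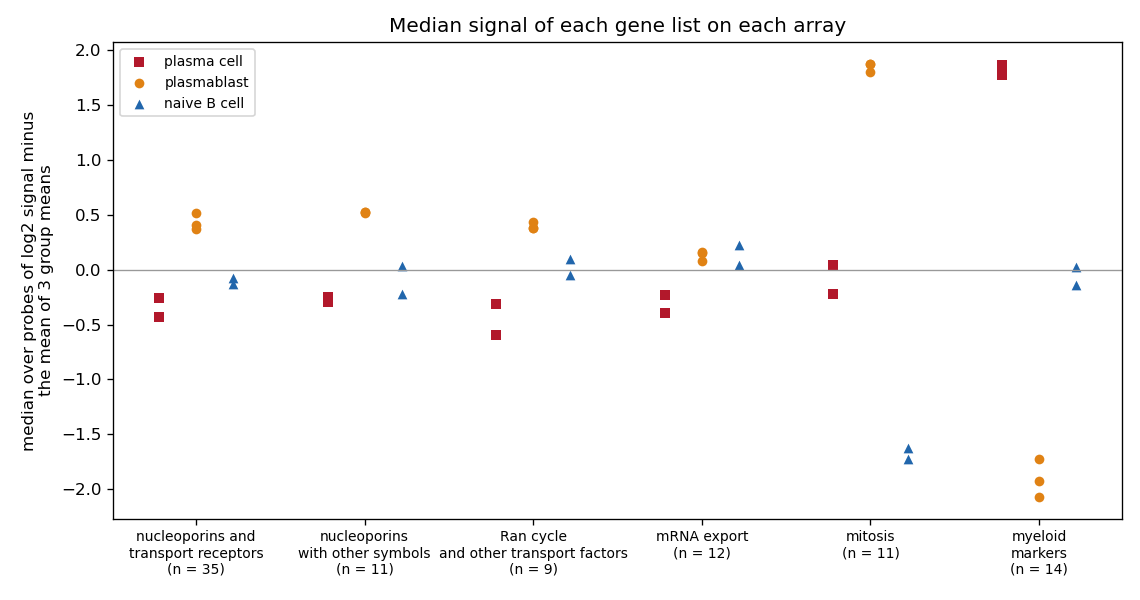
Median over the genes or probes of a list of the log2 signal minus the mean of 3 group means (y axis), 1 point per array, for the members and 5 other gene lists, with plasma cells, plasmablasts and naive B cells from left to right within a list. The members run from 0.372 to 0.519 on plasmablast arrays and from -0.427 to -0.0785 on the others, the mitosis genes from 1.8 to 1.87 on plasmablast arrays, and the myeloid markers are highest on the plasma cell arrays, at 1.77 and 1.86.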

How the data were processed

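The scanner table, as deposited, holds 1 intensity for each probe and array (fluorescence, arbitrary units, not normalized), and a detection p-value scored by the authors' software against each array's negative controls, per the file headers. Signals were exported with GenomeStudio 2011.1, per the submitters' processing notes. A second deposited table held intensity that matched a quantile normalization of the first on the linear scale within 0.0119 log2 units, and was used as an alternative only. Of 25697 probes, 23978 had 1 gene symbol in the platform annotation and 1719 had none.

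In R 4.3.3 with limma 3.58.1, neqc estimated background from the detection p-values, corrected it by normexp with an offset of 16, and returned quantile normalized values of the 7 arrays on the log2 scale. Named probes with a detection p under 0.01 on at least 2 arrays were kept, and lmFit with 3 group means and eBayes (4 residual and 3.94 prior degrees of freedom) tested all 10113 at a Benjamini-Hochberg threshold of 0.05. Values are normalized log2 signals, and a difference between log2 signals is given for each comparison. Where a probe was not above background on any array of a group, the fold is a bound ("at least"), set at the lowest signal above background on those arrays and computed between group means, and no fold is given where the bound is under 1. The number of arrays limits the precision. The fit was also run on simulated data in which few probes changed. Most probes tested here were called, so that run cannot speak to the choice of scaling.

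The members, gene lists and rules were chosen with earlier results of these data known. Values on every array are given for the 5 largest called rises and falls among members in each comparison, for Kpnb1, Kpna2, Nup62 and Nup210, for every gene with several probes and for every member called in opposite directions in the LPS groups. Other lists contribute up to 3 called genes per comparison. Values of Nup43, Nup85, Kpna3, Xpo5, Xpo6 and Xpo7 are given as means and SDs to account for every member. Alternatives were the authors' values, other scalings and offsets, no background correction, other detection limits, 1 probe per gene, a trended robust eBayes, a replicate block, leaving out each replicate, and a fold limit of 2. Methylation sequencing of the same series was not used here.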

Additional observations from a re-analysis of the deposited data

Results flagged for a closer look

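For 9 member probes the sign of the change against the naive B cells differed between plasma cells and plasmablasts, with plasma cells lower than naive B cells and plasmablasts higher. They were chosen by calls in opposite directions against the same naive arrays, so their limma values for plasma cells against plasmablasts are a description and add no support. The log2 difference, plasma cells minus plasmablasts, was -1.64 for Nup93 (SE 0.12, adjusted p = 6.07e-06), -1.56 for Ipo4 (SE 0.11, adjusted p = 5.13e-06), -1.56 for Nup37 (SE 0.11, adjusted p = 4.78e-06; not above background on the plasma cell arrays, so a fall of at least 1.75-fold) and -1.45 for Ipo5 (SE 0.15, adjusted p = 4.48e-05). It was -0.883 for Nup62 (adjusted p = 8.12e-05), -0.797 and -0.888 for the 2 Nup133 probes (adjusted p = 0.000183 and 0.000107), and -0.907 and -1.01 for 2 of the 3 Nup50 probes (adjusted p = 0.000109 and 7.21e-05). Under cyclic loess 5 of the 9 lost the call of plasma cells below naive B cells: Ipo4 (-0.173, adjusted p = 0.22), Ipo5 (-0.382, adjusted p = 0.0558), Nup133 (-0.265, adjusted p = 0.069, and -0.26, adjusted p = 0.0733) and Nup50 ILMN_2748839 (-0.298, adjusted p = 0.0828). The order of the means, plasma cells below plasmablasts, follows from how the 9 were chosen. The 2 plasma cell arrays lay below the 3 plasmablast arrays with no overlap, as the groups did not overlap for 82.4% of all probes either. Groups of 2 and 3 arrays are too small for a check of single outlying arrays.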

How the results depend on the processing

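Over 17 alternative settings, 1614 of 1752 single-probe results kept their direction and their side of the threshold, 71 lost their call, 42 gained one and 25 turned sign, of which 0 had been called. Several settings, such as other detection limits or leaving out an array of the third group, reuse the same log2 differences. The direction could not turn there. Lost calls numbered 57 in plasma cells against naive B cells, 8 in plasmablasts against naive B cells and 6 in plasma cells against plasmablasts. Leaving out 1 replicate gave a member median of 0.494 to 0.604 for plasmablasts against naive B cells, where the median of all probes was -0.00704 to 0.00283. For plasma cells against naive B cells it gave a member median of -0.357 to -0.186, against -0.0801 to -0.0712 over all probes. For plasma cells against plasmablasts it gave a member median of -0.879 to -0.741, against -0.238 to -0.227 over all probes. Calls lost this way numbered 5, 13 and 1 in the same order of comparisons. A group left with 1 array was assumed to vary like the others.

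The median for plasmablasts against naive B cells was 0.292 with the authors' values, 0.434 under cyclic loess, 0.293 without background correction and 0.424 with an offset of 50. For plasma cells against plasmablasts it was -0.476, -0.562 and -0.477 under the first 3 of these and -0.575 with 1 probe per gene. For plasma cells against naive B cells it was -0.0664 under cyclic loess and -0.309 with detection on at least 3 arrays. Members higher in plasma cells than in naive B cells numbered 2 with the authors' values, without background correction and without a detection filter, 3 with the trended robust eBayes and 9 under cyclic loess, where 6 were lower. Over all probes the first 3 settings called 3408, 3409 and 3526 higher, the last of 23978 probes and the others of 10113. The trended robust eBayes called 3432 of 10113 higher, and cyclic loess 4020 higher and 3015 lower. In plasma cells against plasmablasts cyclic loess gave 1 member higher, where it called 3585 of all 10113 probes higher. A limit of 2-fold left 7 higher and 0 lower in plasmablasts against naive B cells, 1 higher and 2 lower in plasma cells against naive B cells, and 12 lower in plasma cells against plasmablasts. Over all 10113 probes tested it left 1602 higher and 1714 lower, 1724 higher and 1446 lower, and 1292 lower, in the same order. The cause of these shifts was not tested.

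The labels do not say whether the replicate numbers pair the samples. Between groups, residuals of same-numbered arrays correlated at -0.0382 to 0.162, and those of differently numbered arrays at -0.162 to 0.0811. In a group of 2 arrays the residuals mirror each other, so these values cannot decide whether samples were paired. With the replicate number as a block, 23 members were called higher and 3 lower in plasmablasts against naive B cells (median 0.494), 6 and 15 in plasma cells against naive B cells (median -0.191), and 0 and 25 in plasma cells against plasmablasts (median -0.786). Over all 10113 probes tested the block gave 3499 higher and 3573 lower, 3338 and 3766, and 2769 and 4501, in the same order. With it, Kpnb1 (0.278, adjusted p = 0.0509) and Nup133 ILMN_2654013 (0.342, adjusted p = 0.0503) in plasmablasts and Nup88 ILMN_3034381 (-0.515, adjusted p = 0.0578) in plasma cells, each against naive B cells, were not called.

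Differences that turned sign were small. Under 75th percentile scaling they were 0.0298 for Xpo6 in plasmablasts against naive B cells, 0.00201 for Kpna3 and 0.0912 for Nup210 in plasma cells against naive B cells, and -0.0763 for Ipo13 in plasma cells against plasmablasts. Under cyclic loess, in plasma cells against naive B cells, they were 0.222 for Kpna3, 0.102 for Kpnb1, 0.124 for Nup210, 0.125 for Nup50 (ILMN_1253804), and 0.00433 and 0.00287 for Nup88 (ILMN_3108109 and ILMN_2742498). In plasma cells against plasmablasts they were 0.0693 for Kpna3, 0.043 for Nup210, 0.0781 for Nup88 (ILMN_2639464), 0.0704 and 0.132 for Nup98, and 0.0602 for Xpo7. Leaving out 1 replicate, plasma cells against naive B cells ran from -0.222 to 0.171 for Kpna3 (0.125 without naive B cell replicate 1), from -0.288 to 0.00559 for Kpna1, from -0.0445 to 0.242 for Nup155 (ILMN_2981935), from -0.357 to 0.0667 for Nup50 (ILMN_1253804) and from -0.313 to 0.0588 for Nup88 (ILMN_2742498), and plasma cells against plasmablasts from -0.099 to 0.0688 for Ipo13 (-0.0305 without plasma cell replicate 1). Ipo13 had -0.099 with the block too.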
